A study of Arabidopsis thaliana with 4 samples.

Results

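Oil in plant cells is stored in lipid droplets, each a core of triacylglycerol under a phospholipid layer to which coat proteins bind. In seeds the main coat proteins are oleosins, while the lipid droplet associated proteins (LDAPs) bind droplets in leaves, seedlings and other tissues as well as in seeds. Seed lipid droplet proteins (SLDPs) are found on the droplets of seeds and young seedlings. After germination the seedling uses up its oil through lipases, beta-oxidation and the glyoxylate cycle, and droplets form again in vegetative cells under stress.

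The set described here holds 5 genes, the LDAP genes AT1G67360, AT2G47780 and AT3G05500 and the SLDP genes AT1G65090 and AT5G36100. They were chosen by name as a family, with their differences between the genotypes of this series already known. The platform annotation names a probe set for 4 of the 5 genes, 3 LDAP genes and 1 SLDP gene, each with a single probe set among the 22746 tested. No probe set of that annotation names AT5G36100, which was not analysed here.

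The rsa3-1 mutant of Arabidopsis thaliana was compared with its wild type on 4 Affymetrix ATH1 arrays, 2 per genotype, which the design text calls biological replicates. Both genotypes are in Columbia gl1 and carry luciferase under the stress-responsive RD29A promoter (RD29A::LUC), and both were 6 days old when moved to 120 mM NaCl for 24 h. There was no array without salt, so each difference is between genotypes under salt. RSA3 (MUR3, AT2G20370) encodes a xyloglucan galactosyltransferase of cell wall synthesis, rsa3-1 is a single mutant line, and its own transcript was not analysed here. RNA came from whole seedlings, so fewer cells of a type and less RNA per cell cannot be told apart.

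The deposited values are on the log2 scale and come from RMA, a method that removes background, brings the arrays to a common distribution and gives 1 value per probe set. Array medians lay between 6.46 and 6.51 and the lowest values between 2.57 and 2.61. Across probe sets, which are not independent replicates, Pearson's r was 0.997 between the rsa3-1 arrays and 0.997 between the wild type arrays. Between arrays of different genotype it ran from 0.993 to 0.995. Of 45 bacterial and phage control probe sets, 44 had their highest value in wild type replicate 1, where the median excess over the other arrays' mean was 0.94. The 4 measured photosynthetic shoot markers were bright, with array values from 11.94 to 13.53, and the root gene PYK10 lay between 13.38 and 13.54. Leaves and roots were thus both represented. The seed storage protein gene measured, AT1G03890 of the cruciferin family, was at 3.58 and 3.98 in rsa3-1 and at 3.51 and 3.57 in wild type, close to the lowest values on the arrays.

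The LDAP gene AT2G47780 and the SLDP gene AT1G65090 had lower transcript levels in rsa3-1 than in wild type, while the LDAP genes AT1G67360 and AT3G05500 had nearly the same level in both genotypes. These differences were known when the genes were chosen, so they are given as a description with no test.

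AT2G47780 was at 7.48 and 7.12 in rsa3-1 replicates 1 and 2, against 8.99 and 8.91 in wild type replicates 1 and 2. Both rsa3-1 arrays lay below both wild type arrays, and the wild type arrays lay closer together. The means were 7.30 ± 0.25 in rsa3-1 and 8.95 ± 0.06 in wild type (SD, n = 2 each). This is a log2 difference of -1.65 (standard error 0.13), or a 3.14-fold lower level in rsa3-1. Taken array by array, the difference between an rsa3-1 and a wild type array ran from -1.87 to -1.43.

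AT1G65090, the SLDP gene, was at 5.83 and 5.23 in rsa3-1 and at 7.52 and 7.38 in wild type. The groups again did not overlap, and rsa3-1 replicate 2 was the lowest of the 4 arrays, as it was for AT2G47780. The means were 5.53 ± 0.43 in rsa3-1 and 7.45 ± 0.10 in wild type (SD, n = 2 each). The log2 difference was -1.92 (standard error 0.19), a 3.78-fold lower level in rsa3-1, and between single arrays it ran from -2.29 to -1.54. Without wild type replicate 1, the array in which the control probe sets were high, the log2 difference was -1.85 for AT1G65090 and -1.61 for AT2G47780. No detection calls were used, and differences toward the dim end of the scale are compressed in RMA values.

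AT1G67360 was at 8.55 and 8.69 in rsa3-1 and at 8.72 and 8.67 in wild type. The rsa3-1 array of replicate 2 lay between the wild type arrays, so the groups overlapped. The log2 difference was -0.07 (standard error 0.10).

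AT3G05500 was at 9.49 and 9.56 in rsa3-1 and at 9.61 and 9.27 in wild type. Both rsa3-1 arrays lay between the wild type arrays. The log2 difference was 0.08 (standard error 0.13), and it turned to -0.09 without wild type replicate 2 and became 0.25 without wild type replicate 1.

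**Figure D1:**
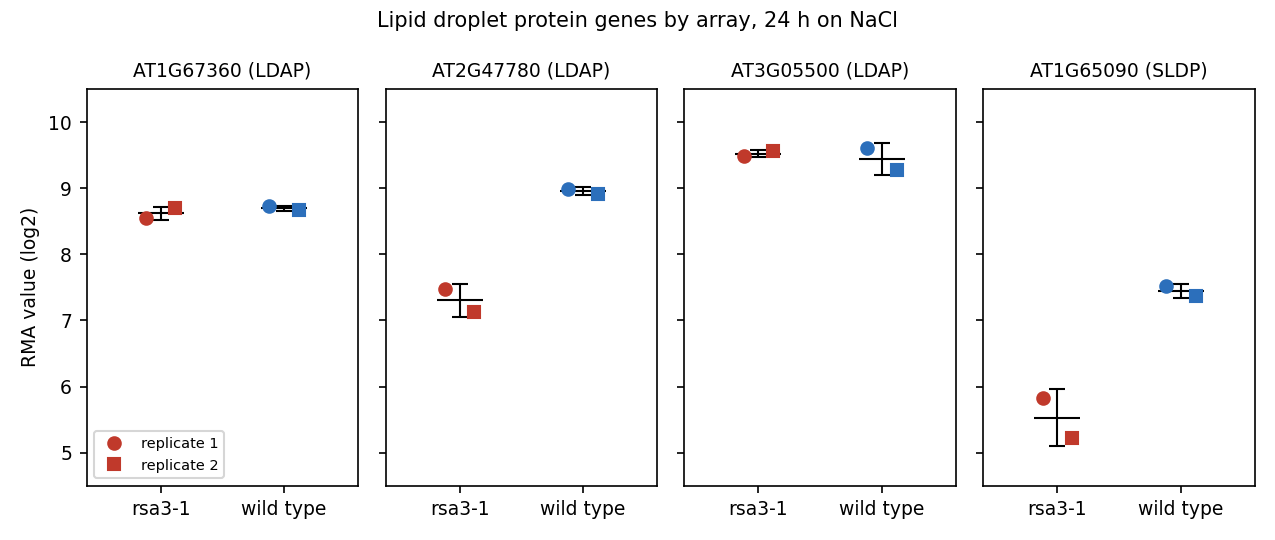
RMA values (log2) of the 4 measured genes on each array, rsa3-1 in red and wild type in blue, circles for replicate 1 and squares for replicate 2. Black bars are the mean and the SD of 2 arrays; AT2G47780 and AT1G65090 lie lower in both rsa3-1 arrays, and AT1G67360 and AT3G05500 overlap between genotypes.

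Within the LDAP family the differences were unequal. The log2 difference of AT1G67360 minus that of AT2G47780 was 1.58, and that of AT2G47780 minus that of AT3G05500 was -1.73; these set differences against each other, not levels. AT1G67360 minus AT3G05500 gave -0.15 on the same scale. The LDAP gene AT2G47780 minus the SLDP gene AT1G65090 gave 0.26.

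Across all 22746 probe sets, limma called 106 lower and 150 higher in rsa3-1 (adjusted p under 0.05). Higher calls were 0.659% and lower calls 0.466% of the probe sets tested, and 2 of the 4 measured genes, AT2G47780 and AT1G65090, were among them. The choice of genes used this contrast, and nothing is read from the count. With the replicate number as a block in the fit, AT2G47780 stayed called and AT1G65090 did not. In the same 2 genes the rsa3-1 arrays lay wholly below the wild type arrays, which was so for 20.9% of all probe sets. Ranked from the most negative difference, AT1G65090 was number 8 and AT2G47780 number 14 of 22746, while AT1G67360 was number 7200 and AT3G05500 number 16916. The median of the 4 differences was -0.86, beside -0.01 for all probe sets. It falls between the differences of the called genes and those near 0, so it describes no gene and nothing is read from it. The smallest two-sided p that an exact permutation of 2 against 2 arrays allows is 0.333, so no such test was made for single genes.

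**Figure D2:**
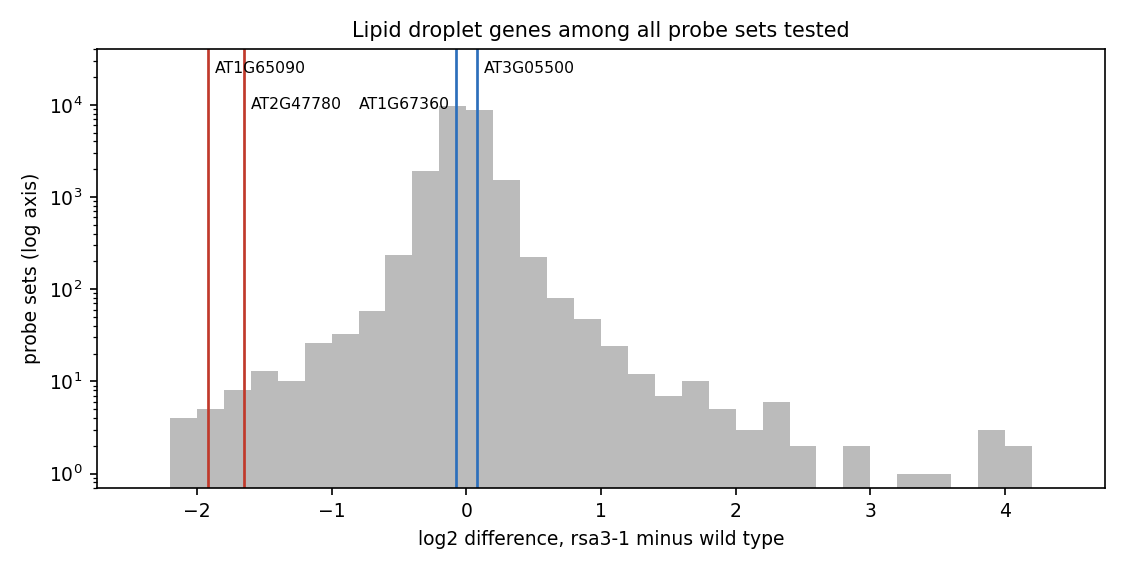
Number of probe sets (log axis) by log2 difference, rsa3-1 minus wild type, with the 4 genes as vertical lines. Red lines are genes called lower in the fit without a replicate block, and blue lines are the others. AT1G65090 at -1.92 and AT2G47780 at -1.65 stand in the far lower tail, and AT1G67360 at -0.07 and AT3G05500 at 0.08 stand at the centre.

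Genes that share the droplet, its oil or the seed program were followed in 6 lists of 103 genes in all. The lists were chosen with earlier results of these data known, so the counts of calls in them are a description and not independent support. Of these, 24 have a probe set named for them and are called measured below. The annotation did not list 8730 of the 22746 probe sets tested, so other listed genes may be on the array without a name. Names given below without a RefSeq symbol are those under which a gene entered its list. Of the 24 genes, 4 were lower in rsa3-1, 0 were higher and 20 did not pass over all probe sets, where the shares called lower and higher were 0.466% and 0.659%. An unadjusted p under 0.05, also counted below, was reached by 9.68% of all probe sets in either direction.

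Among other coat proteins of the droplet, 8 of 27 listed genes were measured, and 3 fell in rsa3-1 (beside 0.466% of all probe sets), all of the oleosin family, whose members anchor a hydrophobic hairpin in the oil core. OLEO3 (AT5G51210) was at 5.03 and 4.93 in rsa3-1, against 6.58 and 6.39 in wild type, which put its log2 difference at -1.50 (standard error 0.11, limma adjusted p = 0.00149). AT3G01570 was at 7.49 and 6.53 in rsa3-1 and at 9.26 and 8.97 in wild type, with a log2 difference of -2.11 (limma adjusted p = 0.0164). AT2G25890 was at 7.93 and 7.64 in rsa3-1 and at 8.75 and 8.65 in wild type, with a log2 difference of -0.92 (limma adjusted p = 0.0175). In each of the 3 oleosin genes, both rsa3-1 arrays lay below both wild type arrays. With the replicate number as a block, OLEO3 stayed called, while AT3G01570 and AT2G25890 did not (limma adjusted p = 0.0703 and 0.100).

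The other 5 coat genes did not pass. AT3G18570, another oleosin gene, had a log2 difference of -0.55 (limma adjusted p = 0.0661), and AT5G45690 and AT4G18920, entered as oil body associated proteins, had -0.35 and -0.29. The median over the 8 genes was -0.45, beside -0.01 for all probe sets, and in 6 of the 8 the rsa3-1 arrays lay wholly below wild type, beside 20.9% of all probe sets. AT3G01570 and AT2G25890 lost their calls without wild type replicate 1 (limma adjusted p = 0.130 and 0.120) and without wild type replicate 2 (0.0758 and 0.0767), and AT2G25890 also without rsa3-1 replicate 2 (0.0723). OLEO3 passed in each of the 4 fits that leave out an array, at adjusted p between 0.00185 and 0.0145.

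Genes for making and dismantling droplets had smaller differences. Of 10 listed genes 6 were measured, 0 passed in limma over all probe sets, and 2 had an unadjusted p under 0.05. In 4 of the 6 the rsa3-1 arrays lay wholly below wild type, beside 20.9% of all probe sets. AT5G16550, entered as LDIP, a protein that binds LDAPs on the droplet surface, was at 8.77 and 9.001 in rsa3-1 and at 8.44 and 8.86 in wild type, and these groups overlapped. AT5G16460, entered as SEIPIN1, a protein of the endoplasmic reticulum at sites where droplets form, was at 3.81 and 3.65 in rsa3-1 and at 4.21 and 4.08 in wild type, toward the lowest values on the arrays. Its log2 difference was -0.42 (limma adjusted p = 0.226).

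AT3G14360, entered as the oil body lipase OBL1, had a log2 difference of -0.26 (limma adjusted p = 0.453). AT1G18460 and AT1G73920, entered as LIDL1 and LIDL2, had -0.22 and -0.16, and AT4G10790, entered as PUX10, an adaptor for the removal of oleosins from droplets, had -0.05. The median of the 6 genes was -0.19.

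In oil breakdown, 5 of 23 listed genes were measured and 1 fell, beside 0.466% of all probe sets. ICL (AT3G21720), the isocitrate lyase of the glyoxylate cycle, was at 10.07 and 9.39 in rsa3-1 and at 11.69 and 11.67 in wild type, which put its log2 difference at -1.94 (standard error 0.20, limma adjusted p = 0.00628). Without wild type replicate 1 its log2 difference was -1.93, but its call was lost. With the replicate number as a block, ICL also lost its call (limma adjusted p = 0.0776). SDP1 (AT5G04040), the main triacylglycerol lipase of seedlings, had a log2 difference of -0.15, and AT3G48080, entered as SDP1L, had 0.21. The array values of AT3G48080 were dim, between 3.83 and 4.15. AT4G24160, entered as CGI-58, had 0.21 and AIM1 (AT4G29010), an enzyme of beta-oxidation, -0.05. These 4 did not pass, and the median of the 5 was -0.05.

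Oil synthesis and seed regulators were thinly covered by the named probe sets. For triacylglycerol synthesis 1 of 17 listed genes was measured, AT3G44830, entered as the acyltransferase PDAT2, with a log2 difference of -0.08. Its array values lay between 4.17 and 4.57, toward the dim end of the scale. Of 17 regulators of seed maturation 3 were measured, and 0 passed in limma while 1 had an unadjusted p under 0.05. EEL (AT2G41070), a bZIP transcription factor of the seed, was at 4.42 and 4.17 in rsa3-1 and at 4.69 and 4.74 in wild type, a log2 difference of -0.42 (limma adjusted p = 0.250). BZIP53 (AT3G62420), another bZIP factor that acts on seed genes, had -0.03 and AGL67 (AT1G77950), a MADS-box factor, 0.01. AGL67 was also dim, between 3.29 and 3.54. Of 9 seed storage protein genes 1 was measured, AT1G03890, with a log2 difference of 0.24 (limma adjusted p = 0.672).

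**Figure D3:**
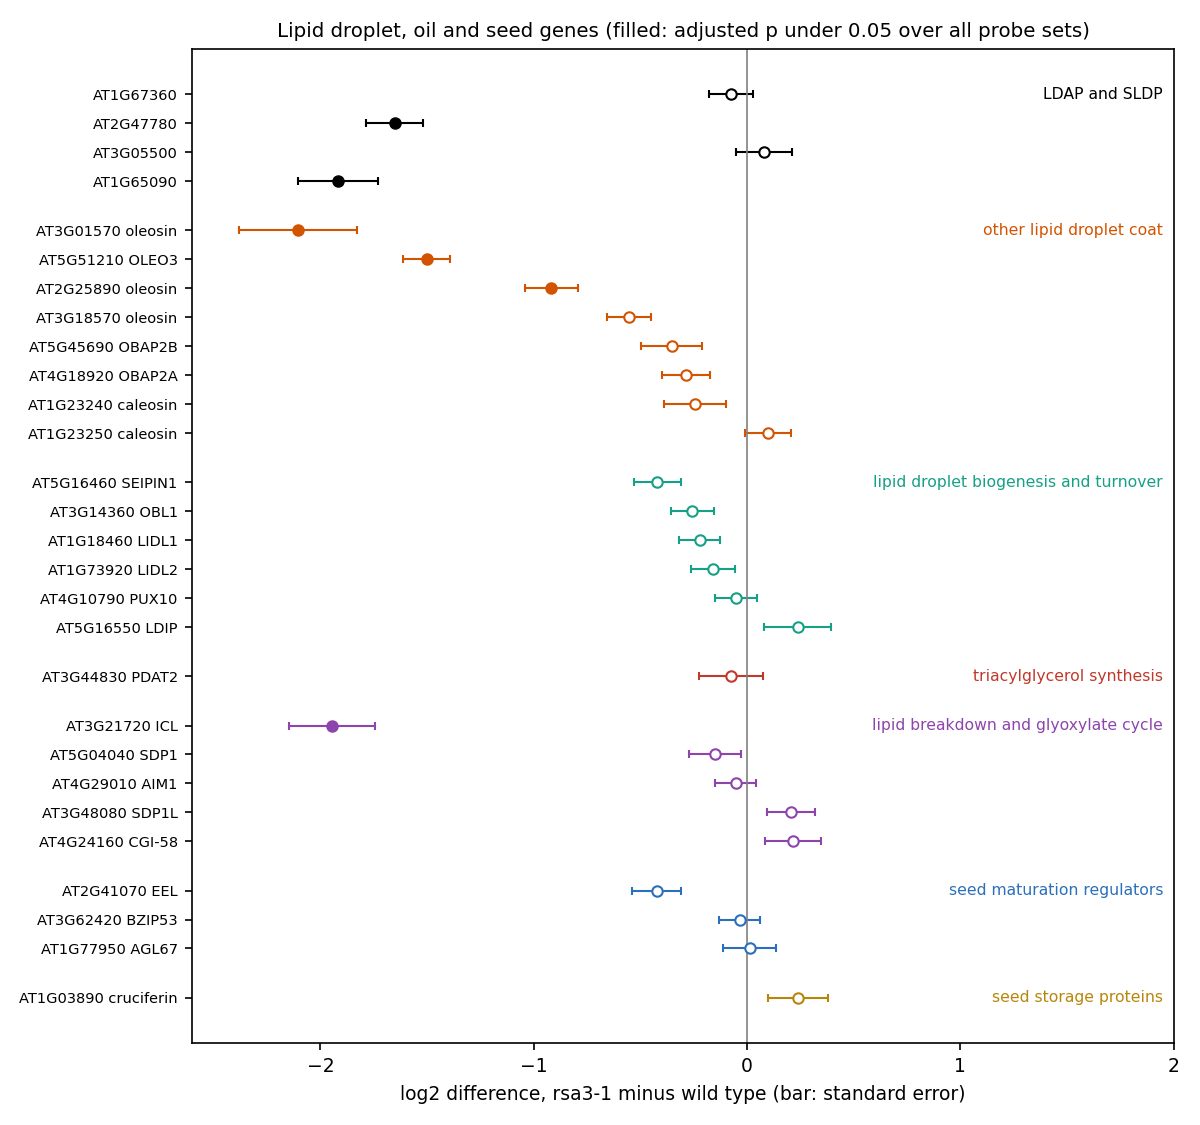
Log2 difference, rsa3-1 minus wild type, with its standard error, for the 4 measured LDAP and SLDP genes and the 24 measured genes of the 6 lists, filled where the adjusted p over all probe sets was under 0.05. The filled points outside the LDAP and SLDP genes are the 3 oleosin genes and ICL, and the other genes lie between -0.55 and 0.24.

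Markers of organs were read beside these results, and their lists too were chosen with earlier results of these data known. The root markers measured were PYK10 and the root hair expansin genes EXPA7 and EXPA18. The 4 shoot markers had log2 differences from 0.04 to 0.28 and the 3 root markers from -0.37 to -0.11, with 0 of the 7 passing in limma and 1 of each list at an unadjusted p under 0.05 (9.68% of all probe sets). In 3 of the 4 shoot markers the rsa3-1 arrays lay wholly above wild type (17.8% of all probe sets did), and in 3 of the 3 root markers wholly below (20.9%). The part of organ proportions in the lower AT2G47780 and AT1G65090 values was not tested.

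The genes of most similar profile were found by centring each gene on its own mean over the 4 arrays and taking the smallest Euclidean distance among 13285 other genes. This distance includes the genotype contrast, so it is a description. For AT2G47780 they were LEA18, a late embryogenesis abundant protein gene (distance 0.12), ATOEP16-2, of a plastid outer envelope protein family (0.17), and OCT1, an organic cation transporter gene (0.18). LEA18 was at 8.25 and 7.72 in rsa3-1 and at 9.69 and 9.62 in wild type.

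For AT1G65090 the nearest were ICL (distance 0.11), DELTA-VPE, a vacuolar processing enzyme gene of the seed coat (0.15), and AT5G10120, of the EIN3-like family (0.23). DELTA-VPE was at 5.74 and 5.07 in rsa3-1 and at 7.45 and 7.42 in wild type. All 6 of these genes were lower in rsa3-1, which follows from their choice by a distance that includes the genotype contrast. AT2G47780 and AT1G65090 were each the number 7 in likeness to the other, at a distance of 0.32, and within a distance of 0.5 there were 20 genes for AT2G47780 and 14 for AT1G65090.

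For the LDAP genes that overlapped between genotypes the measure picks out little, because 12627 genes lay within 0.5 of AT1G67360 and 11854 within 0.5 of AT3G05500. The nearest to AT1G67360 were CYP71, AT2G20740 and AT1G77260, and the nearest to AT3G05500 were AT2G14520, ALDH22A1 and AT5G36090.

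**Figure D4:**
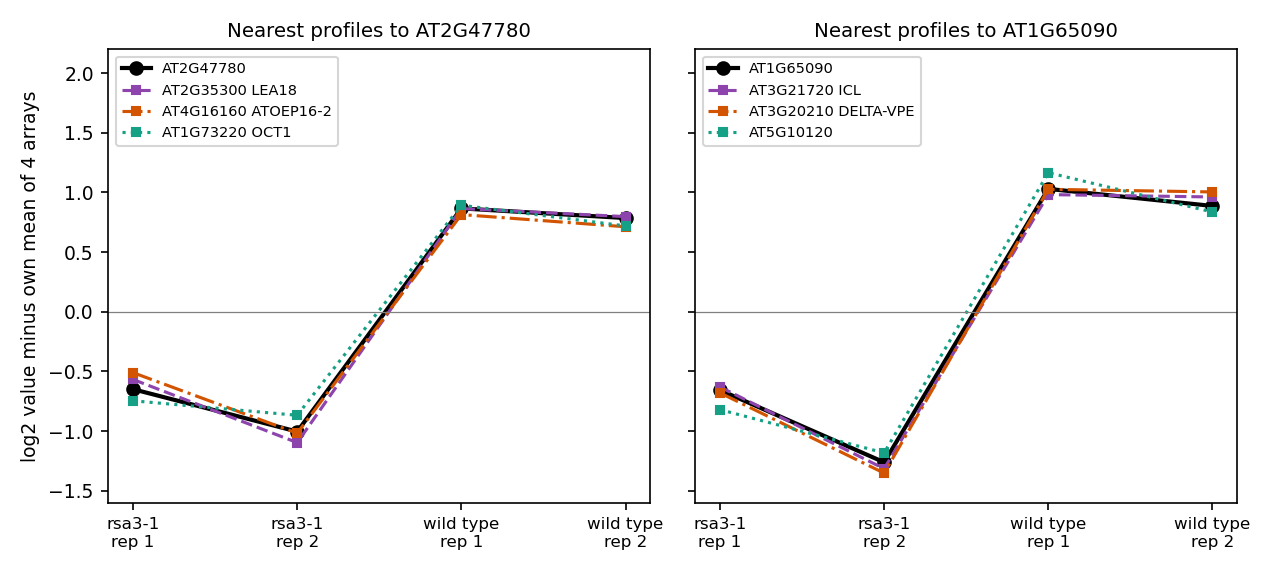
Log2 values minus each gene's own mean over the 4 arrays for AT2G47780 (left) and AT1G65090 (right), each with its 3 nearest genes; lines only join the points of a gene. All 8 profiles lie below 0 in both rsa3-1 arrays and above 0 in both wild type arrays. This follows from the choice of the nearest genes by a distance that includes the genotype contrast.

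Each gene was also set beside the nearest protein-coding genes with a probe set on either side of it, in the gene order of RefSeq assembly TAIR10.1; these were chosen by place, after the values of the LDAP and SLDP genes were known. Limma called 0 of the 8 flanking genes, and 0 reached an unadjusted p under 0.05, with log2 differences from -0.23 to 0.04. Over all probe sets 0.466% were called lower and 0.659% higher, and 9.68% had an unadjusted p under 0.05. At such shares, 0 of 8 says little. Beside AT1G65090 these were AT1G65080, at 5.06 and 4.91 in rsa3-1 and 5.02 and 4.96 in wild type, and AT1G65110, at 2.98 and 2.86 in rsa3-1 and 2.99 and 3.02 in wild type. Beside AT2G47780 they were GH3.9 at a log2 difference of 0.04 and AT2G47820 at -0.15. GH3.9 and AT2G47820 lie 3 and 4 protein-coding genes away from AT2G47780, so its closest neighbours are not among them.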

How the data were processed

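The deposited log2 values were made by the authors with RMA, per the submitters' processing notes (software and version: not given in the sources used here). They were used as deposited. Of 22810 probe sets, 64 array controls were set aside. GEO's platform annotation gave 1 gene for 13513 probe sets and several for 503, and did not list 8730; 13436 matched RefSeq (TAIR10.1) by gene identifier, for 13286 genes. No coordinates are given because the probe annotation states no build. Differences were fitted with limma 3.58.1 in R 4.3.3 (lmFit, eBayes; two-sided; rsa3-1 over wild type), with Benjamini-Hochberg adjustment over 22746 probe sets and a threshold of 0.05. The number of arrays limits the precision. The procedure was tested on simulated data with independent normal noise and no replicate effect, so that test does not bear on the replicate block. Tables and figures used Python 3.11.15.

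The genes described and the lists were chosen with earlier results of these data known. Named were each measured LDAP and SLDP gene, every called gene and up to 6 genes of smallest p per list, and the 3 genes nearest in profile. The caleosin genes of the coat list were named beyond this rule. Where a gene has several probe sets, the one of highest mean stands for it. Alternatives covered scaling, filters, the variance model, array weights, a replicate block, a size threshold and each array left out.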

Additional observations from a re-analysis of the deposited data

How the results depend on the processing

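The 256 calls over all probe sets became 42 with the replicate number as a block and 135 with a 2-fold minimum, which is stricter by construction, and ran from 102 to 222 with each array left out. They numbered 325 with quantile normalization, 333 and 342 with a common median or 75th percentile, and 352 with trended and robust variance. For arrays sharing a replicate number, the deviations correlated at 0.013. This value was not taken for the called genes alone, so it does not settle whether they share a replicate effect. Among the 106 probe sets called lower, replicate 2 was below replicate 1 in 77.4% within rsa3-1 and 67.0% within wild type. Over all probe sets these shares were 55.0% and 54.9%. Pairing of the arrays by number was not tested. Under the replicate block 1 of the 2 called LDAP and SLDP genes stayed called, AT2G47780, and AT1G65090 did not. The 3 calls among the other coat genes became 1 with the replicate block, OLEO3 (limma adjusted p = 0.0703 for AT3G01570 and 0.100 for AT2G25890), and ran from 1 to 3 with each array left out. The call of ICL was 0 with the replicate block (limma adjusted p = 0.0776) and ran from 0 to 1 with each array left out. A fit with an array left out assumes that the lone array varies like the other genotype. The replicate block and each left-out array also leave fewer degrees of freedom to estimate the variance. AT3G18570 passed with quantile normalization (limma adjusted p = 0.0479) and with a filter at a mean of 5 (0.0448). The cause of these changes was not tested. Under the 3 other scalings the log2 difference of AT2G47780 lay between -1.65 and -1.64 and that of AT1G65090 between -1.91 and -1.90. With each array left out they ran from -1.83 to -1.47 and from -2.22 to -1.61; their groups do not overlap, so no such fit could turn their direction. No alternative moved the median of all probe sets beyond -0.02 to 0.01.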

Other observations

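Within rsa3-1, replicate 2 was below replicate 1 in AT2G47780, AT1G65090 and the 4 called list genes. The log2 difference of replicate 2 minus replicate 1 was -0.36 in AT2G47780, -0.61 in AT1G65090, -0.96 in AT3G01570, -0.68 in ICL, -0.28 in AT2G25890 and -0.10 in OLEO3. Within wild type, replicate 2 was below replicate 1 in the same 6 genes, at -0.08, -0.14, -0.29, -0.02, -0.10 and -0.19 in that order of genes. Among the 106 probe sets called lower in rsa3-1, 82 (77.4%) had rsa3-1 replicate 2 below replicate 1 and 71 (67.0%) had wild type replicate 2 below replicate 1, beside 55.0% and 54.9% of all probe sets. The median of replicate 2 minus replicate 1 over these 106 was -0.13 in rsa3-1 and -0.10 in wild type, beside -0.02 in both genotypes over all probe sets. The order of the replicates was looked at after the values were seen, and it was not tested.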
